A study of Mus musculus with 2 samples.

Results

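The genes described here are 8 members of the common gamma chain cytokine system, chosen by their symbols from the 22216 gene rows of the deposited table: the receptor chains Il2rg, Il7r, Il4ra, Il21r and Il15ra, the ligand Il15, and the Janus kinases Jak1 and Jak3. All 8 had 1 row each. Whole spleens of mice of the NOD.L7 genotype were compared with whole spleens of mice of the NOD.g7 genotype by RNA sequencing, with 1 library per genotype and 3 spleens pooled in each. Both groups carry the NOD name of the non-obese diabetic mouse, an inbred strain prone to autoimmune diabetes. The labels give no treatment, age or sex, and do not say what L7 or g7 stands for. The table heads its columns NOD.LC7 and NOD, which were taken as NOD.L7 and NOD.g7. A pool has no spread between its mice, so every difference below is between 2 libraries and has no replicate check or p-value.

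The common gamma chain, encoded by Il2rg, is the shared signalling chain of the receptors for interleukins 2, 4, 7, 9, 15 and 21. Each receptor adds its own chain or chains, which bind the cytokine and, with the exception of the alpha chains for interleukins 2 and 15, carry Jak1. Jak3 is bound by the common chain itself. In the spleen these cytokines are known for the upkeep of T cells and NK cells, for help to B cells and, in the case of interleukin-15, for delivery by a neighbouring cell that holds the cytokine on its own interleukin-15 receptor alpha chain.

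Of the 8 genes, 5 were at nearly the same level in both libraries, with folds of NOD.L7 over NOD.g7 from 0.948 for Il21r to 0.998 for Il7r. Jak3 was higher in NOD.L7, with a fold of 1.17, and the interleukin-15 pair differed further and in opposite directions. The chain Il15ra was at 1.72 RPKM (sequence from the gene, scaled to gene length and to library size) in NOD.L7, against 3.38 in NOD.g7. Its ligand Il15 was at 1.59 RPKM in NOD.L7, against 0.88 in NOD.g7. These were also the 2 lowest levels among the 8 genes.

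Levels and ratios of all genes give the scale for these differences. The values of NOD.L7 rested on 12.1 Gb of mapped sequence and those of NOD.g7 on 9.13 Gb, worked out from the steps of the low RPKM values. A total of 11141 genes reached an RPKM of 1 in either library and were kept, the 8 genes among them. Il15 was kept through NOD.L7 alone, so its difference was partly built into that filter. Log2 ratios were taken as log2((NOD.L7 + 1)/(NOD.g7 + 1)), which understates differences of low genes. None of the 8 genes reached an absolute log2 ratio of 1, which 0.386% of the genes kept passed upward and 0.323% downward. At an absolute log2 ratio of 0.25, 1 of the 8 was higher in NOD.L7, against 8.82% of the genes kept, and 1 was lower, against 4.74%. The median log2 ratio was -0.06 over the 8 genes and 0.02 over the genes kept. With 6 of 8 inside 0.25, compared with 86.4% of the genes kept, the group as a whole was close to the background.

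**Figure D1:**
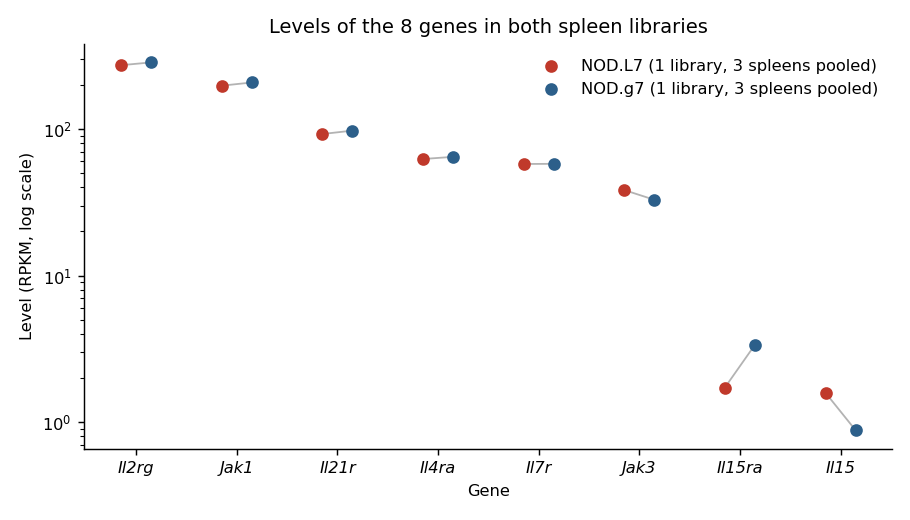
Level of each of the 8 genes in RPKM, on a log scale, with 1 point for the NOD.L7 library (left) and 1 for the NOD.g7 library (right) and a line joining them. Il2rg, Jak1, Il21r, Il4ra, Il7r and Jak3 lie between 32.8 and 284 RPKM, with nearly level lines except for that of Jak3, which is higher in NOD.L7, while Il15ra and Il15 lie between 0.88 and 3.38 with lines that slope in opposite directions.

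**Figure D2:**
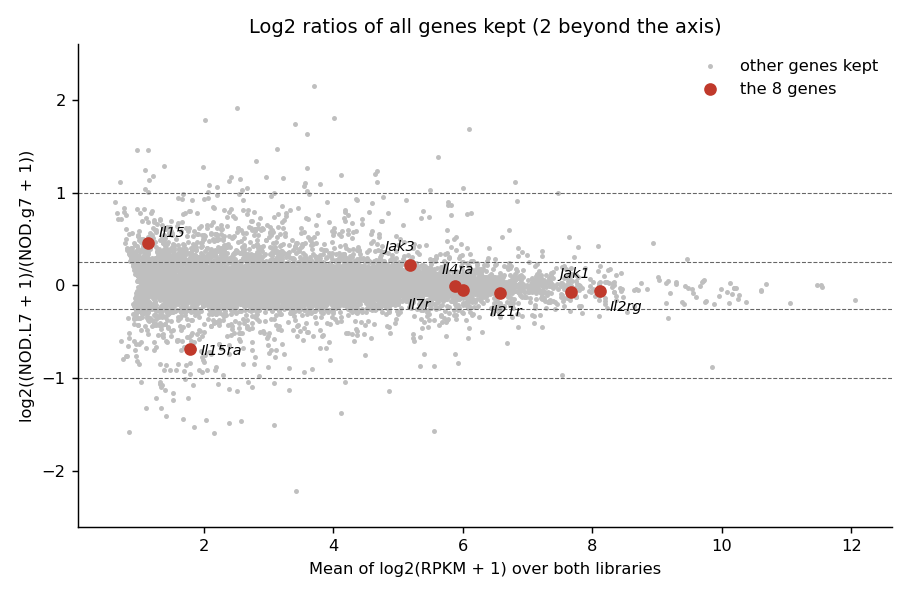
Log2 ratio of NOD.L7 over NOD.g7, with 1 RPKM added to each value, against the mean log2 level of the 11141 genes kept (grey) with the 8 genes in red and dashed lines at ratios of 0.25 and 1 in both directions. Il15 at 0.46 and Il15ra at -0.69 lie outside the inner lines and inside the outer ones, and 2 genes lie beyond the axis.

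Among the receptor chains, the common chain was by far the most abundant per length. Il2rg (chromosome X, 98459726 to 98463545 in mm9) was at 272 RPKM in NOD.L7 and 284 RPKM in NOD.g7, above 99.2% and 99.3% of the genes kept. The fold of NOD.L7 over NOD.g7 was 0.957, with a 95% counting interval of 0.940 to 0.974. Such intervals come from approximate fragment numbers and cover counting error only, not differences between mice. In RPKM, Il2rg exceeded Il7r 4.71-fold in NOD.L7 and 4.92-fold in NOD.g7, and exceeded Il21r 2.95-fold in NOD.L7 and 2.92-fold in NOD.g7. The excess of the common chain over Il7r and Il21r was thus similar in both libraries. Over Il15ra it was not, at 158-fold in NOD.L7 and 83.9-fold in NOD.g7.

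The stretch before the start of Il2rg is shown because this is the most abundant receptor gene among the 8. A short stretch of Il15ra is added, the receptor gene among the 8 furthest apart between the libraries. Sequences are from RefSeq in build GRCm38.p6, which is that of the C57BL/6J reference and not of either genotype. Capitals mark the letters CCGGAAG, a core that ETS family factors are known to bind. The Il2rg stretch of 250 bases is chrX:101268256-101268505 on the minus strand, and the match begins at position -17 from the annotated start. The Il15ra stretch of 30 bases is chr2:11705178-11705207 on the plus strand, and the match begins at position -104 from the upstream of its 2 annotated starts.
Il2rg: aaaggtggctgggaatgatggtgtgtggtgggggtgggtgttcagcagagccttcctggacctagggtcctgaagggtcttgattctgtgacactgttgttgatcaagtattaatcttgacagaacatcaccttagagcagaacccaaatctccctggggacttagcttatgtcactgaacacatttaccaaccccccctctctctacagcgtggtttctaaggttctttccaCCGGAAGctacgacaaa
Il15ra: gaaaggtacagCCGGAAGaaggcaaagtgt

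Promoter windows, of 250 bases before and 50 after a start, were matched for 7 of the 8 genes, in 8 windows. The letters CCGGAAG, on either strand, were in the windows of Il2rg and of the upstream start of Il15ra and in no other of the 8, and 8.86% of all 32851 windows held them. The STAT motif TTCNNNGAA was in the window of Il7r alone, against 8.3% of all windows. These motifs were chosen after the levels were known. A match describes the letters and is not a binding site.

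The private chains for interleukins 7, 4 and 21 were almost level between the libraries. Il7r, the interleukin-7 receptor alpha chain of naive and memory T cells, was at 57.6 RPKM in NOD.L7 and 57.8 RPKM in NOD.g7 (chromosome 15, 9435914 to 9459631). Its fold of 0.998 had a counting interval of 0.971 to 1.02, the only interval of the 8 that spanned 1. Il4ra, which binds interleukin-4 and also serves the interleukin-13 receptor, was at 62.3 RPKM in NOD.L7 and 64.5 RPKM in NOD.g7, a fold of 0.966 (0.946 to 0.986). Il21r, the interleukin-21 receptor chain of B cells and activated T cells, was at 92.2 RPKM in NOD.L7 and 97.3 RPKM in NOD.g7, a fold of 0.948 (0.924 to 0.972). The differences of Il4ra and Il21r were larger than the counting error but far inside the ratio of 0.25, and whether other mice would give them was not tested.

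Il4ra and Il21r are neighbours on chromosome 7. In mm9 Il4ra spans 132695796 to 132722988 and Il21r spans 132746943 to 132777084, with 24 kb between them. Genes starting within 500 kb of either one numbered 9, of which 7 were kept, these 2 included. The median log2 ratio of the 7 was -0.05, and none reached an absolute ratio of 1. The furthest apart were Jmjd5, a gene of the Jumonji domain family, at 3.25 RPKM in NOD.L7 and 2.50 RPKM in NOD.g7 (log2 ratio 0.28), and Nsmce1, a subunit gene of the Smc5/6 complex, at 33.0 RPKM in NOD.L7 and 37.6 RPKM in NOD.g7 (log2 ratio -0.18). Gtf3c1, a subunit gene of a transcription factor of RNA polymerase III, was at 21.4 RPKM in NOD.L7 and 21.1 RPKM in NOD.g7. D430042O09Rik was at 4.11 RPKM in NOD.L7 and 4.08 RPKM in NOD.g7, and the exportin gene Xpo6 was at 42.9 RPKM in NOD.L7 and 45.5 RPKM in NOD.g7. Of these 7 genes, 1 was past 0.25, upward in NOD.L7, against 8.82% of all genes kept upward and 4.74% downward. None was past 1, against 0.386% of all genes kept upward and 0.323% downward.

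Of the receptor genes among the 8, the interleukin-15 receptor alpha chain was furthest apart. Il15ra (chromosome 2, 11627163 to 11655589), whose product binds interleukin-15 with high affinity and presents it to neighbouring cells, had a fold of 0.509 in NOD.L7 over NOD.g7. The counting interval was 0.431 to 0.602, from about 241 fragments in NOD.L7 and 357 in NOD.g7. Its log2 ratio was -0.69, and 98.0% of the genes kept had a smaller absolute ratio. Among the 2720 genes kept whose higher value was from 1 to 5 RPKM, a band chosen after the values were seen, 1.80% had a ratio as low as that of Il15ra.

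The ligand went the other way. Il15 (chromosome 8, 84855523 to 84926444), made by myeloid and stromal cells, had a fold of 1.80 in NOD.L7 over NOD.g7, with a counting interval of 1.37 to 2.37 from about 183 fragments in NOD.L7 and 77 in NOD.g7. Its log2 ratio was 0.46, and 5.18% of the genes in the same band of levels had a ratio as high. Il15 was in that band through NOD.L7 alone, so this share was partly built into the filter and is a description only. In RPKM, Il15ra was 1.09 times as abundant as Il15 in NOD.L7 and 3.84 times as abundant in NOD.g7. The receptor chain and its ligand were thus at near-equal levels in NOD.L7 and further apart in NOD.g7. In whole spleen, fewer cells that carry a transcript and less transcript per cell cannot be told apart, and this holds for every gene here.

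Each of these genes had close matches elsewhere among the genes kept, by distance over the 2 log2(RPKM + 1) values. Nearest to Il15ra was Klrc3, an NK receptor gene of the NKG2 family whose near relatives can share reads, at 1.67 RPKM in NOD.L7 and 3.32 RPKM in NOD.g7 (distance 0.04). Next were Rapgef3 and the small nucleolar RNA gene Snord91a, at distances of 0.07 and 0.09. Snord91a rested on about 10 fragments in NOD.L7 and 15 in NOD.g7. Nearest to Il15 were Tns4, Bend4 and Bcl2l15, at distances of 0.007, 0.03 and 0.03, all kept through NOD.L7 alone, like Il15. With 2 libraries, such likeness means similar levels in both and nothing more.

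Of the kinases, Jak1, which serves all the common gamma chain receptors and the interferon receptors too, was at 197 RPKM in NOD.L7 and 207 RPKM in NOD.g7 (chromosome 4, 100824976 to 100937887). Its fold was 0.951 (0.939 to 0.962), close to that of Il2rg. Jak3, the kinase of the common chain, was at 38.3 RPKM in NOD.L7 and 32.8 RPKM in NOD.g7 (chromosome 8, 74200282 to 74212061), a fold of 1.17 (1.13 to 1.20). Its log2 ratio of 0.21 was below 0.25 but opposite in sign to those of Jak1 and Il2rg, and 83.2% of the genes kept had a smaller absolute ratio. Jak1 exceeded Jak3 5.15-fold in NOD.L7 and 6.31-fold in NOD.g7, in RPKM. Jak2 was at 39.5 RPKM in NOD.L7 and 37.6 RPKM in NOD.g7, and Tyk2, which like Jak2 serves other cytokine receptors, was at 27.2 RPKM in NOD.L7 and 27.0 RPKM in NOD.g7.

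The order of the 8 levels was the same in both libraries, with Il2rg highest, then Jak1, Il21r, Il4ra, Il7r, Jak3, Il15ra and Il15. Whether neighbours in this order differ beyond the spread between mice could not be measured. The closest were Il15ra and Il15 in NOD.L7, at 1.72 and 1.59 RPKM, and Il4ra and Il7r, at 62.3 and 57.6 RPKM in NOD.L7 and at 64.5 and 57.8 RPKM in NOD.g7.

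The rest of the pathway was read from lists of genes by role. Among the other receptor chains, 5 of 6 were kept, with 1 past a log2 ratio of 0.25 in each direction. Of all genes kept, 8.82% were past 0.25 upward and 4.74% downward. Il13ra1, the partner of Il4ra in the receptor that takes both interleukins 4 and 13 without the common chain, was at 8.35 RPKM in NOD.L7 and 4.66 RPKM in NOD.g7, a fold of 1.79 (1.65 to 1.95). Il9r, the private chain for interleukin-9, was at 17.8 RPKM in NOD.L7 and 23.7 RPKM in NOD.g7, a fold of 0.753 (0.724 to 0.784). Other chains that work with Il2rg went both ways, with Il2ra higher in NOD.L7 and Il2rb lower.

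Il2rb, the chain that interleukins 2 and 15 share, was at 52.6 RPKM in NOD.L7 and 59.1 RPKM in NOD.g7, with a log2 ratio of -0.16. Il2ra, the alpha chain for interleukin-2, lies 12.3 kb before Il15ra on chromosome 2, and was at 6.48 RPKM in NOD.L7 and 5.36 RPKM in NOD.g7. Its fold of 1.21 (1.12 to 1.31) was thus opposite in direction to that of Il15ra next to it. Crlf2, the receptor chain for thymic stromal lymphopoietin that pairs with Il7r, was at 20.4 RPKM in NOD.L7 and 17.7 RPKM in NOD.g7. Il13ra2, a decoy receptor gene, was listed at 0 in both libraries.

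None of the 7 other ligands reached an RPKM of 1. Il21, the ligand of Il21r made by helper T cells, came nearest, at 0.767 RPKM in NOD.L7 and 0.349 RPKM in NOD.g7, from about 142 fragments in NOD.L7 and 49 in NOD.g7. Its fold was 2.20 (1.57 to 3.09). Il2 was at 0.199 RPKM in NOD.L7 and 0.0711 RPKM in NOD.g7, and Il4 at 0.1499 RPKM in NOD.L7 and 0.176 RPKM in NOD.g7. Il7 was at 0.0334 RPKM in NOD.L7 and 0.0133 RPKM in NOD.g7, and Tslp at 0.137 RPKM in NOD.L7 and 0.205 RPKM in NOD.g7. Il13 was at 0.0137 RPKM in NOD.L7 and listed at 0 in NOD.g7, and Il9 was listed at 0 in both. At 14 fragments or fewer in each library, no difference in those genes was detectable at this depth.

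Downstream, 4 STAT genes, which carry the signal to the nucleus, had log2 ratios from -0.03 to 0.21, with none past 0.25. Of all genes kept, 86.4% were likewise inside 0.25. Stat6, the factor of interleukin-4, was at 82.0 RPKM in NOD.L7 and 84.0 RPKM in NOD.g7. Stat5a was at 18.5 RPKM in NOD.L7 and 18.4 RPKM in NOD.g7, and Stat5b, which like Stat5a serves interleukins 2, 7 and 15, was at 38.8 RPKM in NOD.L7 and 35.5 RPKM in NOD.g7. Stat3, the factor of interleukin-21, was at 66.6 RPKM in NOD.L7 and 57.4 RPKM in NOD.g7.

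Of 7 inhibitor genes, 4 were past 0.25, all higher in NOD.L7, against 8.82% of all genes kept past 0.25 upward and 4.74% downward. The 4 were the SOCS family members on the list, whose products are feedback inhibitors. Cish, a STAT5-induced inhibitor, was at 10.6 RPKM in NOD.L7 and 6.54 RPKM in NOD.g7, a fold of 1.62 (1.51 to 1.72). Socs3, an inhibitor of interleukin-6 family and granulocyte growth factor receptors, was at 41.1 RPKM in NOD.L7 and 25.9 RPKM in NOD.g7, a fold of 1.59 (1.52 to 1.66). Socs1, which blocks Janus kinases directly, was at 12.9 RPKM in NOD.L7 and 9.13 RPKM in NOD.g7, and Socs2 was at 1.76 RPKM in NOD.L7 and 1.21 RPKM in NOD.g7. The remaining inhibitors act on the receptors and kinases and were near level. The phosphatase genes Ptpn2 and Ptpn6 were at 7.73 and 314 RPKM in NOD.L7 and at 7.44 and 317 RPKM in NOD.g7. The adaptor gene Sh2b3 was at 50.1 RPKM in NOD.L7 and 51.8 RPKM in NOD.g7.

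Of 9 target genes, 1 was past 0.25 in each direction, against 8.82% of all genes kept upward and 4.74% downward. Bcl2, a survival gene that interleukins 7 and 15 maintain in lymphocytes, was at 29.1 RPKM in NOD.L7 and 22.4 RPKM in NOD.g7, a fold of 1.30 (1.26 to 1.34). Klf2, a factor of quiescent T cells, was at 118 RPKM in NOD.L7 and 156 RPKM in NOD.g7, a fold of 0.756 (0.738 to 0.775). Pim1, a survival kinase gene induced by STAT5, was at 53.5 RPKM in NOD.L7 and 46.4 RPKM in NOD.g7, and Pim2 was at 32.3 RPKM in NOD.L7 and 29.0 RPKM in NOD.g7. Over these pathway lists as a whole, 6 of 27 kept genes were past 0.25 upward and 2 downward, which left 70.4% inside 0.25, against 86.4% of all genes kept.

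**Figure D3:**
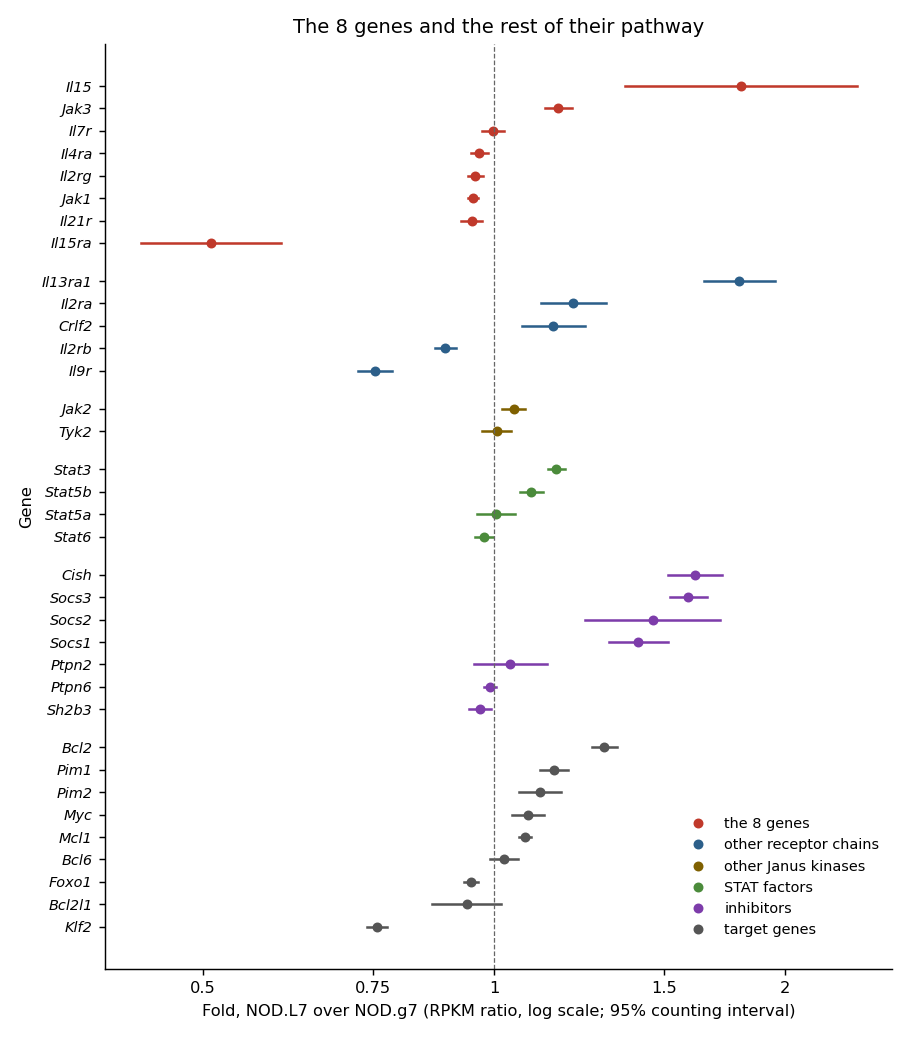
Fold of NOD.L7 over NOD.g7 on a log scale, with 95% counting intervals as bars, for the 8 genes and for the kept genes of 5 pathway lists, 1 row per gene. Il15ra at 0.509 is the lowest of all rows and Il15 at 1.80 the highest, and its interval overlaps those of Il13ra1, Cish, Socs3, Socs2 and Socs1.

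Markers of the spleen's cell types, whose part in the differences above was not tested, differed unequally between the libraries. Of all genes kept, 56.2% were higher in NOD.L7, the share to set beside each count of direction among the markers. The spleen label stood beside abundant B cell and T cell markers. All 7 T cell markers were kept and none was at 0, with 4 higher and 3 lower in NOD.L7. Their summed level was 860 RPKM in NOD.L7 and 832 RPKM in NOD.g7, beside the near-level Il2rg, Il7r and Il21r. The 6 B cell markers, beside Il4ra and Il21r, were all lower in NOD.L7, with a sum of 1783 RPKM in NOD.L7 and 2136 RPKM in NOD.g7. The 2 CD8 genes summed to 86.6 RPKM in NOD.L7 and 135 RPKM in NOD.g7. The 5 naive T cell markers, beside Klf2 and Il7r, summed to 815 RPKM in NOD.L7 and 918 RPKM in NOD.g7, with 4 of 5 lower.

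All 5 NK markers were lower in NOD.L7, with a sum of 32.7 RPKM in NOD.L7 and 62.2 RPKM in NOD.g7. Their direction was that of Il15ra and Il2rb, but also of the B cell, CD8 and erythroid markers, all of them lower. All 9 markers of monocytes and macrophages were higher in NOD.L7, with a sum of 537 RPKM in NOD.L7 and 321 RPKM in NOD.g7, in the same direction as Il15, Il13ra1 and Socs3 and opposite to Il15ra. The 5 neutrophil markers in the table were also all higher, with a sum of 911 RPKM in NOD.L7 and 682 RPKM in NOD.g7. Dendritic cell markers were higher for 3 of 5, near the 56.2% of all genes kept. Their sum was 63.7 RPKM in NOD.L7 and 53.8 RPKM in NOD.g7. The 3 regulatory T cell markers, beside Il2ra, were all higher, with a sum of 34.0 RPKM in NOD.L7 and 24.5 RPKM in NOD.g7, and Cd4 was at 136 RPKM in NOD.L7 and 106 RPKM in NOD.g7. The 5 erythroid markers were all lower, with a sum of 38.2 RPKM in NOD.L7 and 96.3 RPKM in NOD.g7.

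**Figure D4:**
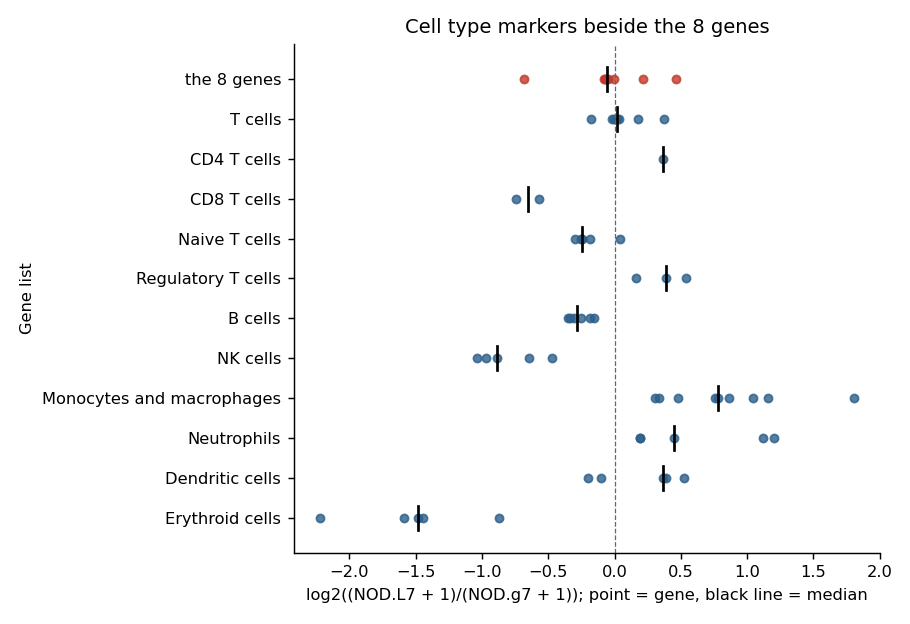
Log2 ratio of NOD.L7 over NOD.g7, with 1 RPKM added to each value, for the 8 genes (red) and for the kept markers of 11 cell types (blue), with 1 point per gene and a black line at each list's median. The median of the 8 genes is -0.06 and that of the T cell markers 0.02, while the NK median is -0.89 and the median of monocytes and macrophages 0.78.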

How the data were processed

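Whole-spleen RNA was extracted with an RNeasy kit and made into libraries with a TruSeq kit, per the labels' protocols. The authors deposited 1 RPKM value per gene and library. The submitters' processing notes name CASAVA 1.8.2, SAMtools 0.1.18 and build mm9. How reads were aligned, which gene models and lengths were used and whether strand was kept is not given in the sources used here. A listed item is not reported here. The 8 genes and the lists were chosen with earlier results of these data known. Text names all 8 genes, every member of pathway lists of up to 8 genes or up to 4 members of longer pathway lists by absolute log2 ratio, and the 3 nearest genes to the 2 members furthest apart. Cell type markers are given as sums and counts. Mapped bases were found as the total that made low RPKM values of single-exon genes whole numbers of bases, within 0.15 (62 values in NOD.L7, 63 in NOD.g7, 100% whole). Fragments were approximated from the longest GENCODE transcript of a gene and 200 bases per fragment, and exact binomial intervals (Clopper-Pearson, 95%) were taken of the fold. Older symbols were matched through RefSeq synonyms, and the table holds 9 symbols with more than 1 row, none of them named here. Python 3.11.15, pandas 2.3.3 and SciPy 1.17.1 were used, and the calculations were tested on simulated data. Alternatives were pseudocounts of 0.1 and 0.5, no filter and a filter at RPKM 5, median centring, a TMM factor on the RPKM values, 100 bases per fragment and the shortest coding transcript.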

Additional observations from a re-analysis of the deposited data

How the results depend on the processing

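No paired analysis was possible because there was a single library per genotype, and for the same reason no library could be left out. Across pseudocounts, median centring and the TMM factor, none of 32 recomputed log2 ratios of the 8 genes changed sign. This is no check of direction, because a pseudocount cannot change the sign of a ratio. Median centring and the TMM factor lowered all 8 ratios slightly, so a negative ratio could not change sign there either. The ratio of Il15ra was -0.93 with a pseudocount of 0.1, against -0.69 with 1, as a smaller pseudocount understates low genes less, and Il15 ranged from 0.44 to 0.78. The ratio of Jak1 was -0.0951 with the TMM factor, against -0.0726, a shift common to all genes. With the shortest coding transcript, the counting interval of Il4ra spanned 1, with an upper bound of 1.04. The bound nearest 1 was then 1.01 for Il15, against 1.37, and 0.756 for Il15ra, against 0.602. At a filter of RPKM 5, 0 of the 8 genes were past 0.25 upward and 0 downward, because Il15 and Il15ra were then not tested, and the genes past 0.25 numbered 522 upward and 286 downward, against 983 and 528. Genes lower in NOD.L7 past a ratio of 1 then numbered 19, against 36. With pseudocounts of 0.1 and 0.5, genes past a ratio of 1 numbered 91 and 67 upward, against 43, and 75 and 57 downward, against 36. Depth limits Il15 and Il15ra most, and counting intervals do not cover differences between mice.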

Other observations

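Receptors that use Janus kinases without the common gamma chain were also measured. Of 23 such genes 20 were kept, with 3 past a log2 ratio of 0.25 upward in NOD.L7 and 1 downward, against 8.82% and 4.74% of all genes kept, and a median of 0.06 against 0.02. Csf3r, the granulocyte growth factor receptor, was at 73.7 RPKM in NOD.L7 and 39.0 RPKM in NOD.g7, a fold of 1.89 (95% counting interval 1.83 to 1.95). Csf2rb, the shared beta chain of the receptors for interleukins 3 and 5 and granulocyte-macrophage growth factor, was at 24.0 RPKM in NOD.L7 and 15.6 RPKM in NOD.g7. Its close relative Csf2rb2, with which it can share reads, was at 6.44 RPKM in NOD.L7 and 4.88 RPKM in NOD.g7. Il5ra, the eosinophil receptor chain for interleukin-5, was at 4.11 RPKM in NOD.L7 and 5.30 RPKM in NOD.g7. The neutrophil markers in the same libraries summed to 911 RPKM in NOD.L7 and 682 RPKM in NOD.g7, and their part in these values was not tested.

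The listed interferon receptor genes, which also signal through Jak1, were inside a log2 ratio of 0.25, as were 86.4% of all genes kept. Ifnar1 was at 23.2 RPKM in NOD.L7 and 23.5 RPKM in NOD.g7, and Ifnar2 had a fold of 1.01 (0.970 to 1.06). Ifngr1 was at 89.5 RPKM in NOD.L7 and 82.1 RPKM in NOD.g7, a fold of 1.09 (1.06 to 1.12). Ifngr2 had a fold of 1.07 (1.04 to 1.11). These genes were named after their values were seen.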
